A study of Mus musculus with 13 samples.

Results

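The response of quadriceps muscle to loss of DOR was set against its response to gain of DOR, gene by gene, to ask for which genes the 2 responses differ or run in opposite directions. For each gene the effect of loss was the mean of SKM-KO minus the mean of C, the effect of gain was the mean of SKM-Tg minus the mean of Wt, and the quantity tested was the effect of gain minus the effect of loss, called the difference of effects. It is above 0 where the effect of gain was above the effect of loss, and below 0 in the opposite case, on the log2 scale of the array signal. Each effect is taken against its own control, so the sign does not say whether SKM-Tg read above or below SKM-KO. All 13 arrays of the series entered, 1 per sample: 3 of SKM-KO, 3 of C, 4 of SKM-Tg and 3 of Wt. Of 17097 genes with a probe set of their own, 10411 were bright enough to be tested, each through its brightest probe set over all arrays, with no use of how the groups differed. All samples were whole quadriceps of C57Bl/6 males aged 4 months on standard chow. The design speaks of DOR ablation, taken here to mean SKM-KO with C as its control, and of a gain of DOR function, taken to mean SKM-Tg with Wt. The labels state neither this pairing nor the Cre line, the promoter of a transgene or the founder line, and every value below rests on the pairing. The labels give each sample a number of its own but no litter, collection day or batch, so the p-values measure only the spread between these samples, and the part of such handling in any gap between groups cannot be told apart from genotype.

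DOR is an earlier name of Trp53inp2, a small protein that shuttles between nucleus and cytoplasm. In the cytoplasm it binds Atg8-family proteins and promotes the formation of autophagosomes, the vesicles that carry cell contents to lysosomes for breakdown, and in the nucleus it acts as a coactivator of nuclear hormone receptors such as the thyroid hormone receptor. Muscle relies on autophagy to clear damaged organelles and to supply amino acids in fasting, so the autophagosome, lysosome, secretory pathway, fibre type and insulin response genes were described as lists beside the single genes.

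The arrays did not spread evenly. The first principal component of the genes tested held 62.3% of the variance, and the arrays of C and SKM-KO lay together on it, between -17.1 and -13.8. Wt 2 stood apart at 55.6, Wt 1 at 17.4 and Wt 3 at -12.7, and the SKM-Tg arrays ran from -7.7 to 25.2. The median SD within a group was 0.10 in C and in SKM-KO, 0.17 in SKM-Tg and 0.25 in Wt. The difference of effects of a named gene is therefore given also without Wt 2 wherever that moved it by over 1.5 times, and no 2 arrays held identical values. The 15 markers of skeletal muscle identity with a probe set were all bright, from 10.29 to 12.93 on the log2 scale.

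Trp53inp2 itself gave the largest difference of effects among the genes that passed the test. It read 11.06, 11.19 and 11.15 in C, 8.58, 8.79 and 8.99 in SKM-KO, 11.20, 11.46 and 11.001 in Wt, and 11.11, 11.03, 11.28 and 11.24 in SKM-Tg. All SKM-KO arrays lay far below all C arrays, and the SKM-Tg and Wt arrays overlapped. The effect of loss was -2.35 (5.08-fold lower) and the effect of gain -0.06, so the difference of 2.29 (SE 0.19, 95% interval 1.89 to 2.69; limma adjusted p = 2.16e-04) lay almost wholly in loss. This is a difference and not a reversal: the mean of SKM-Tg was within the range of Wt, and no excess of Trp53inp2 signal was seen on the arrays labelled SKM-Tg. Whether the only probe set of the gene lies in the deleted exons, or in a part that a transgene would carry, is not given in the sources used here, so it does not check the label SKM-Tg. Its homologue Trp53inp1 had effects of 0.45 for loss and 0.51 for gain and a difference of 0.06 (SE 0.60, adjusted p = 0.992), with arrays of SKM-Tg from 6.91 to 8.48, and its sign turned without Wt 2 (-0.37).

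H3c11, a replication-dependent histone H3 gene, was the only gene that passed the test with effects in opposite directions. It read 5.34, 5.39 and 5.23 in C, 4.96, 5.11 and 4.92 in SKM-KO, 5.38, 5.43 and 5.42 in Wt, and 5.91, 6.08, 5.97 and 6.04 in SKM-Tg. Every SKM-KO array was below every C array, and every SKM-Tg array was above every Wt array and every array of the other groups. The effect of gain was 0.59 (1.5-fold higher), the effect of loss was -0.32 (1.25-fold lower), and the difference was 0.91 (SE 0.13, 95% interval 0.64 to 1.18; limma adjusted p = 0.0401). The signal was dim, with a mean of 5.48 against a filter at 4.904. The difference ranged over 0.87 to 0.97 when each array was left out in turn, but its adjusted p then ran from 0.0547 to 0.25 and passed in 0 of 13, and over all 22519 probe sets past the filter it was 0.107. Histone H3 genes are near-identical copies of each other, so the probe set may read more than H3c11. Together the 2 genes made up 0.0192% of the genes tested.

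The upstream sequences of these 2 genes are shown because they are the only genes that passed the test. Each gives the 250 bases before the annotated start, 5′ to 3′ along the gene, from RefSeq on build GRCm38.p6, with matches to CCAAT and TGACGTCA on either strand in capitals.
Trp53inp2 (chr2:155381606-155381855, plus strand): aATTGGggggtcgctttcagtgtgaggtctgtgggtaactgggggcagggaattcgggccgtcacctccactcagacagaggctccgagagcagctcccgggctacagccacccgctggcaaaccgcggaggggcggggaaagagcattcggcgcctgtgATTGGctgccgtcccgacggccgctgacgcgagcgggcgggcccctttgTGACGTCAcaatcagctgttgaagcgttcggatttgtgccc
H3c11 (chr13:21783398-21783647, minus strand): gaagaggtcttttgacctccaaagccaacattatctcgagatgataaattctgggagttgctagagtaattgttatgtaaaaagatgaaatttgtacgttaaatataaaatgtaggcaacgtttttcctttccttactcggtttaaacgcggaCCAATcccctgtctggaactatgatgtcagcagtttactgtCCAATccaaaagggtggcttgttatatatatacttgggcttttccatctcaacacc
Trp53inp2 held CCAAT, in reverse, starting 249 and 90 bases before the start and the palindrome TGACGTCA, the full cyclic AMP response element, at 41 bases. H3c11 held CCAAT at 97 and 56 bases. Over all 32851 promoters of the table, 33.8% held CCAAT and 1.55% TGACGTCA in the same window. CACGTG, held by 6.02% of promoters, was in neither window.

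Beyond these, few genes departed from equal effects. The count of 2 depends on how the arrays are weighted: with array quality weights, which lower the influence of arrays far from their group, 231 genes passed (189 lower and 42 higher), with weights of 7.21 for Wt 1, 0.147 for Wt 2 and 0.23 for Wt 3, so that the Wt mean was nearly that of Wt 1 alone, and without weights Trp53inp2 and H3c11 did. At an unadjusted p under 0.05 the difference was lower than 0 for 246 genes (2.36% of those tested) and higher for 77 (0.74%), together 3.1%, which is below the 5% at which the threshold is set. These counts are descriptive, and the balance of directions depends on the scaling: 76.2% of them were lower in the deposited values, 45.2% after quantile normalization, 47.9% after cyclic loess and 63% with no filter on dim genes. The median over all genes was -0.06 for the difference, -0.05 for gain and 0.01 for loss, and 61.7% of genes had a difference below 0. Effects of gain and loss had opposite signs for 5458 genes (52.4%), and across genes, which are not independent replicates, they hardly followed each other (Pearson's r -0.02, Spearman's rho -0.06). The median SE of a difference was 0.21, so a gene had to differ by about 0.45 for its 95% interval to leave 0 at the median spread.

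**Figure D1:**
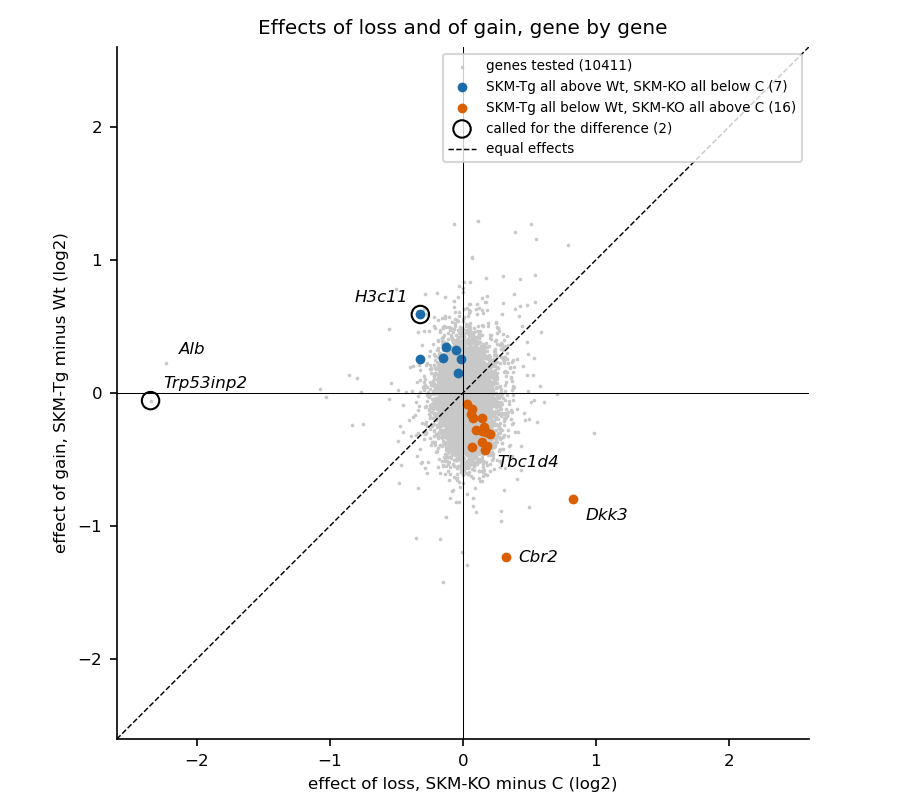
Effect of loss (SKM-KO minus C, horizontal axis, log2) against effect of gain (SKM-Tg minus Wt, vertical axis, log2), 1 point per gene tested (10411), with the line of equal effects dashed. Trp53inp2 (circled) sits far left at almost no effect of gain, H3c11 (circled) sits in the upper left quadrant, and Dkk3 and Cbr2 are the points farthest into the lower right quadrant among genes whose arrays separate (7 genes in blue, 16 in orange).

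The genes on the lower side were mostly genes that read highest in Wt. Of the 246, the mean was highest in Wt for 177, in SKM-KO for 66 and in C for 3, and the effect of gain was the larger one in size for 218. Their median effect was -0.35 for gain and 0.13 for loss, with opposite signs in 230. Of the 77 on the higher side, the mean was lowest in Wt for 47 and in SKM-KO for 29, and the effect of gain was the larger for 58. Picking genes by a low difference in itself favours opposite signs and a highest mean in Wt or SKM-KO. A high difference favours a lowest mean there. The signs and the place of the extreme mean therefore follow in large part from the rule and are not separate results. The difference of effects counts a gap between the controls as part of its value. In limma, Wt and C differed at an unadjusted p under 0.05 for 2891 of the 10411 genes tested, and 1 gene passed after adjustment. Without Wt 2 the counts were 262 lower and 111 higher, so that 70.2% were lower, against 76.2% with all arrays. The counts rose to 1170 and 405 without Wt 3, and the lower count rose to 481 without SKM-Tg 3 and dropped to between 119 and 160 without C 1, C 3, SKM-KO 2, SKM-KO 3 or SKM-Tg 1. The higher count dropped to 51 without C 1.

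Separation of the arrays gave a descriptive view of reversal. With 3 or 4 arrays per group, arrays can also separate where there is no effect. The rate of that was not worked out, so the counts below are not a test. They do not show more reversal than arrays without an effect would give. In 7 genes (0.0672% of those tested) every SKM-Tg array lay above every Wt array and every SKM-KO array below every C array, and in 16 genes (0.154%) the arrays separated the other way. Fewer genes separated in the same direction: 4 genes (0.0384%: Apobec1, Fzd4, Klf11 and Usp29) were above their controls in both lines and 2 (0.0192%: Cpeb3 and Tnfrsf22) below. For each line alone, SKM-Tg lay wholly above Wt in 123 genes (1.18%) and wholly below in 290 (2.79%), and SKM-KO wholly above C in 485 (4.66%) and wholly below in 295 (2.83%). The pattern with 16 genes joins the larger count of each line, 290 and 485. The sizes of the 4 patterns therefore depend on these single-line counts and are not a measure of reversal against shared direction. The counts depend on the scaling, with 27 against 8 genes after quantile normalization and 30 against 11 after cyclic loess, so which of the patterns held more genes turned with the scaling. Leaving out an array relaxes the condition, and the counts then ran from 9 to 23 and from 20 to 78, with 18 and 41 without Wt 2. Of the 7 genes, 4 kept the pattern after quantile normalization and 6 after cyclic loess, and of the 16, 5 and 8 did. Median centring kept 2 of the 7 and 7 of the 16, and averaging the probe sets of a gene kept 3 and 11. Apart from separation, in 6 genes both effects reached an unadjusted p under 0.05 with opposite signs (H3c11, Rfxap, Dkk3, Atp13a5, Lysmd3 and Maml1), against 5 with the same sign, and of the 6 only H3c11, Rfxap and Dkk3 were among the separated genes.

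**Figure D2:**
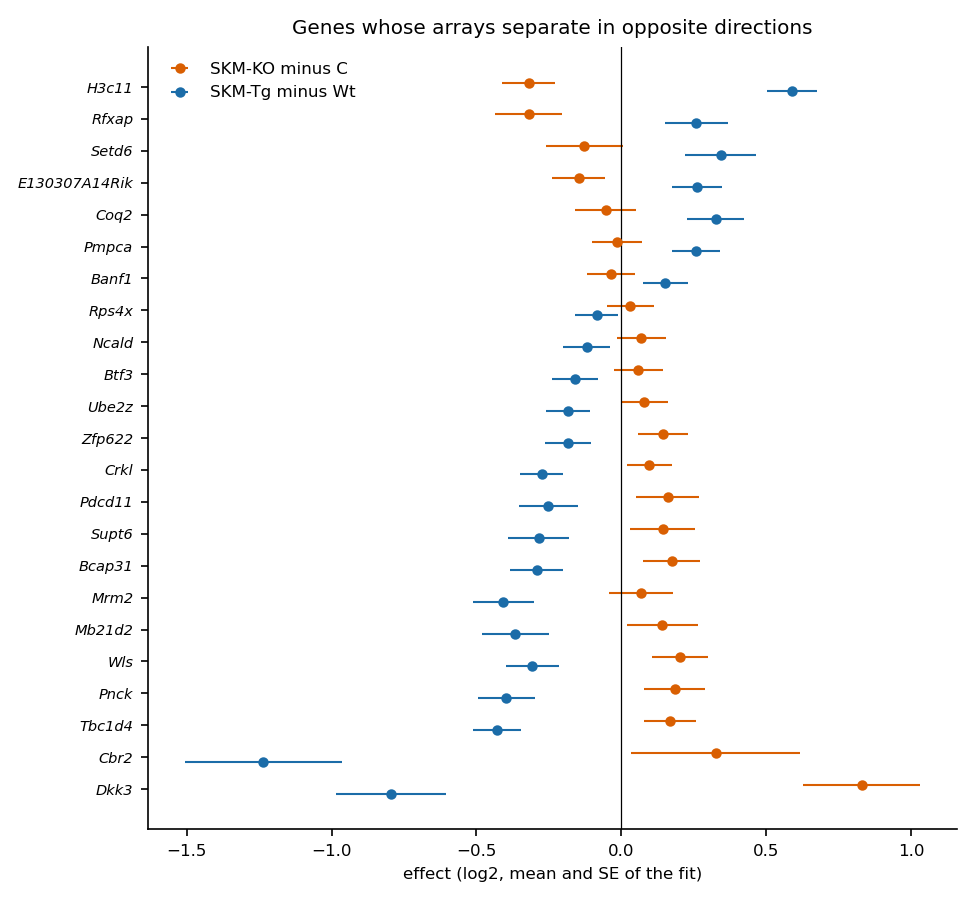
Effect of loss (orange) and effect of gain (blue) with the SE of the fit, log2 on the horizontal axis, for the genes whose arrays separate from their controls in opposite directions, ordered by the difference of effects. H3c11 and Rfxap lead the genes that were higher with gain, and Dkk3, with effects of -0.80 and 0.83, is at the far end of the 16 others.

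Dkk3, a Dickkopf family member that cells secrete, came closest to the threshold after the called genes and had effects of nearly equal size. It read 6.04, 5.16 and 5.85 in C, 6.56, 6.35 and 6.64 in SKM-KO, 6.42, 6.69 and 6.53 in Wt, and 6.04, 5.68, 5.79 and 5.48 in SKM-Tg. C and SKM-Tg were both low, SKM-KO and Wt both high, and neither line overlapped its control. The effect of gain was -0.80 and of loss 0.83, a difference of -1.62 (SE 0.28, 95% interval -2.23 to -1.02; limma adjusted p = 0.219), which did not pass. A second probe set gave -1.47, with opposite signs for gain and loss as well. Without Wt 2 the difference was -1.56, and over the 13 omissions it ran from -1.80 to -1.36.

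Wls, the carrier that brings Wnt proteins to the cell surface, showed the same signs on all 3 of its probe sets, with differences of -0.51, -0.53 and -0.48. On the brightest it read 7.50, 7.60 and 7.59 in C, 7.65, 7.88 and 7.77 in SKM-KO, 7.38, 7.29 and 7.45 in Wt, and 7.09, 7.15, 6.94 and 7.09 in SKM-Tg. All 4 groups separated, from SKM-Tg at the bottom over Wt and C to SKM-KO at the top. The effect of gain was -0.31 and of loss 0.20 (difference SE 0.13, 95% interval -0.80 to -0.22; limma adjusted p = 0.989), and without Wt 2 the difference was -0.55. Set directly against each other without their controls, SKM-Tg was at -0.70 relative to SKM-KO (adjusted p = 0.0101), a comparison that uses the same arrays of both lines. Dkk3 was at -0.765 in that comparison and did not pass (limma adjusted p = 0.1125).

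Tbc1d4, the Akt substrate AS160 that holds glucose transporter vesicles inside the muscle fibre until insulin signals, read 8.27, 8.36 and 8.35 in C, 8.58, 8.38 and 8.53 in SKM-KO, 8.57, 8.45 and 8.55 in Wt, and 8.16, 8.10, 8.07 and 8.03 in SKM-Tg. All SKM-Tg arrays were the lowest of the series, and SKM-KO lay above C by a narrow margin. The effect of gain was -0.43 and of loss 0.17, with a difference of -0.60 (SE 0.12, 95% interval -0.86 to -0.33; limma adjusted p = 0.841; -0.63 without Wt 2). Cbr2, a carbonyl reductase, read 7.61, 7.47 and 7.62 in C, 7.90, 8.11 and 7.67 in SKM-KO, 9.04, 9.60 and 8.05 in Wt, and 7.45, 7.56, 7.97 and 7.68 in SKM-Tg. Its Wt arrays were widely spread, with Wt 1 and Wt 2 above all others and Wt 3 below SKM-KO 2, and both lines separated from their controls. The difference of -1.56 (SE 0.40, adjusted p = 0.989) was -1.21 without Wt 2 and -1.98 without Wt 3, where it passed (adjusted p = 0.0168). Relative to SKM-KO directly, SKM-Tg was at -0.41 in Tbc1d4 (limma adjusted p = 0.0777) and at -0.23 in Cbr2 (limma adjusted p = 0.662). In Cbr2 the mean of Wt lay 1.33 above that of C, a gap that the difference of effects includes.

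**Figure D3:**
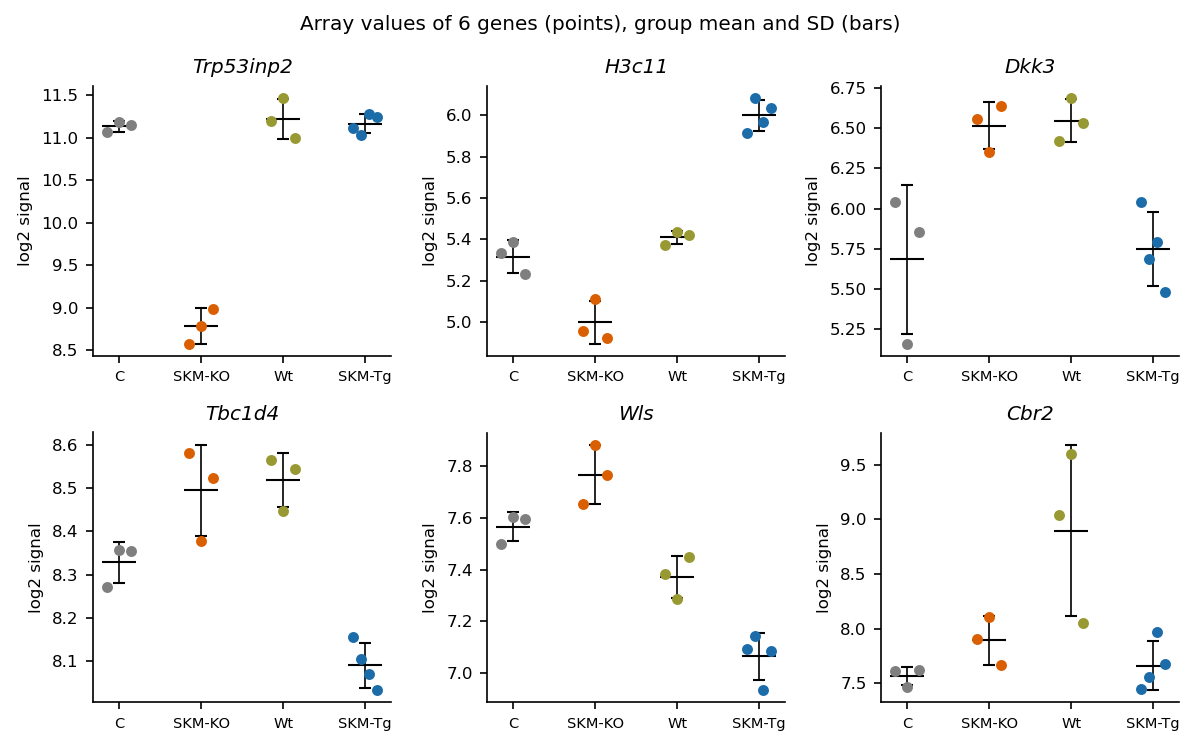
Log2 signal of Trp53inp2, H3c11, Dkk3, Tbc1d4, Wls and Cbr2 on each array (points) with the group mean and SD (bars), for C, SKM-KO, Wt and SKM-Tg. Only Trp53inp2 has SKM-Tg and Wt arrays that overlap, and in Cbr2 the Wt arrays at 9.04 and 9.60 lie far above all others while the third is at 8.05.

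The other genes with SKM-Tg below Wt and SKM-KO above C had differences between -0.58 (Pnck) and -0.12 (Rps4x). Pnck, a calcium/calmodulin-dependent protein kinase, had -0.40 for gain and 0.18 for loss (difference -0.58, SE 0.15). Its Wt arrays read 6.55, 6.75 and 6.38, above all others, while the SKM-Tg arrays lay below all SKM-KO arrays and overlapped C. Bcap31, an ER membrane chaperone, had -0.29 and 0.17 (difference -0.47, SE 0.14), with a second probe set at -0.39. Differences were also read for Pdcd11, which acts in ribosomal RNA processing, at -0.41 (SE 0.15), Zfp622, a maturation factor of the large ribosomal subunit, at -0.33 (SE 0.12), and Supt6, a transcription elongation factor, at -0.43 (SE 0.15). Zfp622 had the same sign on all 3 of its probe sets past the filter, and Mb21d2 stood at -0.51 (SE 0.17), while its second probe set gave -0.22 with an effect of loss near 0. The last 6 of the 16 were Crkl, Ube2z, Ncald, Mrm2, Btf3 and Rps4x, with effects of loss of at most 0.10. The limma adjusted p of the difference was 0.989 for each of Pnck, Bcap31, Pdcd11, Zfp622, Supt6 and Mb21d2. For SKM-Tg against SKM-KO directly, Pnck was at -0.09, Bcap31 at -0.11 and Zfp622 at -0.09. Supt6 was at -0.16, Pdcd11 at -0.26 and Mb21d2 at -0.46. The mean of Wt lay above that of C by 0.49 in Pnck and 0.36 in Bcap31.

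Among the genes with SKM-Tg above Wt and SKM-KO below C, Rfxap, a subunit of the complex that binds MHC class II promoters, followed H3c11. It read 6.12, 6.01 and 6.04 in C, 5.86, 5.67 and 5.68 in SKM-KO, 5.97, 5.61 and 5.95 in Wt, and 6.10, 6.05, 6.01 and 6.25 in SKM-Tg. Both lines separated from their controls, but by less than the spread within Wt. The effects were 0.26 for gain and -0.32 for loss (difference 0.58, SE 0.16, adjusted p = 0.989; 0.46 without Wt 2), and on its second probe set the effect of loss was 0.09. The other 5 of the 7 were E130307A14Rik at 0.41 (SE 0.13), Setd6, a lysine methyltransferase, at 0.47 (SE 0.18), Coq2, an enzyme of ubiquinone synthesis, at 0.38 (SE 0.14), Pmpca, a subunit of the mitochondrial processing peptidase, at 0.27 (SE 0.12), and Banf1, a chromatin-binding protein of the nuclear envelope, at 0.19 (SE 0.11). In Coq2, Banf1 and Pmpca the effect of loss was between -0.05 and -0.01, so nearly all of the difference was an effect of gain. The probe sets of Setd6 disagreed in sign (2 of 3 were positive), and those of Banf1 gave 0.14 and 0.08 beside the brightest. Without Wt 2, Setd6 had a difference of 0.30.

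Most other genes with a small p separated from the control in 1 line only. Adhfe1, a mitochondrial transhydrogenase, read 9.88, 9.78 and 9.76 in C, 9.79, 9.76 and 9.73 in SKM-KO, 9.65, 9.57 and 9.88 in Wt, and 10.19, 10.21, 10.09 and 10.08 in SKM-Tg. All SKM-Tg arrays were above all others and the rest overlapped, giving 0.44 for gain and -0.05 for loss (difference 0.49, SE 0.13). Golm1, a Golgi membrane protein, had 0.49 and -0.21, Gabrr2, a GABA receptor subunit, 0.72 and -0.13, and Pou4f1, a transcription factor of sensory neurons, 0.55 and -0.18, the last 2 near the filter on dim genes. 1110032A03Rik (0.45), Krtap21-1 (0.44), Prox2 (0.47) and Ccl27a (0.76, with 2 of 4 probe sets of the opposite sign) completed the 12 smallest p-values on this side. On the lower side, Ccdc117 read 5.91, 6.17 and 6.01 in C, 6.07, 6.53 and 6.11 in SKM-KO, 6.22, 6.30 and 6.31 in Wt, and 5.85, 5.56, 5.78 and 5.58 in SKM-Tg. Its SKM-Tg arrays were the lowest of the series, with -0.58 for gain and 0.21 for loss (difference -0.79, SE 0.18), while its second probe set gave -0.29, with -0.10 for gain.

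Trp53bp1, which binds p53 and marks DNA double-strand breaks, read 8.63, 8.74 and 8.66 in C, 8.70, 8.99 and 8.83 in SKM-KO, 8.71, 8.56 and 8.70 in Wt, and 8.26, 8.38, 8.31 and 8.25 in SKM-Tg. All SKM-Tg arrays lay below all others (gain -0.36, loss 0.16, difference -0.52, SE 0.13; -0.57 without Wt 2), while its second probe set gave -0.18, with -0.15 for gain and 0.03 for loss. Rabgef1, an exchange factor of the endosomal GTPase Rab5, had a difference of -0.44 (SE 0.12) with the same sign on its 3 probe sets, and Cstf2t, a subunit of the mRNA cleavage stimulation factor, -0.49 (SE 0.14). Atp13a5, a P-type ATPase, had effects of -0.40 and 0.44 (difference -0.84, SE 0.21), with C 1 at 5.43 inside the range of SKM-KO. Cnksr3, a scaffold protein, had -0.80 (SE 0.21) and Tmem37, a calcium channel gamma-like subunit, -1.05 (SE 0.30; -0.89 without Wt 2). The adjusted p was 0.989 for each gene of this paragraph and for the 10 genes on the higher side after Trp53inp2 and H3c11.

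The gene lists were read as counts and medians beside all genes, for which the median difference was -0.06 and 61.7% were below 0. H3c11 was the only list member, apart from Trp53inp2 itself, that passed over all genes. The members named are those with the smallest p in each list, so they lie at its edge, and their adjusted p was 0.989 unless another is given.

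Genes of autophagosome formation, the process Trp53inp2 takes part in, had a median of -0.12, with 23 of 30 below 0. The median was -0.11 for gain and 0.07 for loss. In limma 0 of the 30 were at an unadjusted p under 0.05, against 2.36% of all genes on the lower side and 0.74% on the higher. The smallest p-values were those of Tmem41b, which acts in phagophore growth (-0.29, SE 0.14), Atg5 (-0.34, SE 0.17) and Atg16l1 (-0.38, SE 0.23), both of the complex that lipidates Atg8 proteins, and Atg13 of the initiating kinase complex (-0.50, SE 0.27). The cargo receptors showed no lean: 6 of 12 were below 0, and the smallest p-values belonged to Bag3, a co-chaperone of selective autophagy, at -0.58 (SE 0.24, unadjusted p = 0.0336), Bcl2l13 at -0.38, Fundc1 at 0.22 and Bnip3l, a mitophagy receptor, at 0.24. Bag3 read 9.13, 9.52 and 9.35 in C, 9.28, 9.40 and 9.48 in SKM-KO, 9.54, 10.06 and 9.60 in Wt, and 8.92, 9.01, 9.49 and 9.39 in SKM-Tg. Its SKM-Tg arrays were all below Wt, and SKM-KO and C overlapped. The autophagosome median was -0.10 without Wt 2, -0.06 after quantile normalization and -0.06 after cyclic loess, and 0.00 with 15 of 30 below 0 for SKM-Tg against SKM-KO directly. Without Wt 2, Atg13 had a difference of -0.31, Atg16l1 -0.17, Bcl2l13 -0.20, Fundc1 0.06 and Bnip3l 0.10. The receptor median was 0.00, and -0.10 without Wt 2.

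Lysosomal genes leaned further. Of 33 hydrolases 30 had a difference below 0, with a median of -0.31, -0.19 for gain and 0.06 for loss, and 26 had a negative effect of gain with a positive effect of loss. The median level of the list, relative to each gene's mean over all arrays, was -0.08, -0.06 and -0.07 in C, -0.06, 0.01 and 0.09 in SKM-KO, 0.12, 0.32 and -0.04 in Wt, and -0.26, -0.10, 0.18 and 0.01 in SKM-Tg. Wt 2 was the highest array and SKM-Tg 1 the lowest, and SKM-Tg 3 was above 2 of the 3 Wt arrays. Without Wt 2 the median difference was -0.16. Asah1, the acid ceramidase, was lowest in p (unadjusted 0.00596) and read 7.57, 7.57 and 7.43 in C, 7.53, 7.67 and 7.69 in SKM-KO, 7.52, 7.41 and 7.58 in Wt, and 7.28, 7.23, 7.04 and 7.05 in SKM-Tg. All its SKM-Tg arrays were below Wt (gain -0.35, loss 0.10, difference -0.46, SE 0.14). Man2b1, a lysosomal mannosidase, had -0.68 (SE 0.29), Ctsz, a cathepsin, -0.34 (SE 0.15) and Ppt1, a thioesterase, -0.35 (SE 0.17), and 3 of the 33 were at an unadjusted p under 0.05 on the lower side, against 2.36% of all genes.

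Lysosomal membrane and sorting genes had a median of -0.23 (14 of 18 below 0; -0.11 without Wt 2), led by the cholesterol exporter Npc1 at -0.44 (SE 0.20), Cln3 at -0.56 (SE 0.27), Tmem192 at -0.45 and the calcium channel Mcoln1 at -0.24. The proton pump that acidifies lysosomes had -0.13 (10 of 14), with Atp6v0e at -0.35, Atp6v1b2 at -0.29, Atp6v0d1 at -0.39 and Atp6v0a1 at -0.32. The pump median was -0.08 without Wt 3 and -0.06 after quantile normalization, with 8 of 14 below 0. Without Wt 2, Cln3 had a difference of -0.37, Tmem192 -0.27, Atp6v0d1 -0.20 and Atp6v0a1 -0.10. When SKM-Tg was set directly against SKM-KO, with no subtraction of controls, the medians of the 3 lysosomal lists were -0.04, -0.04 and -0.01. The median of Wt minus C in the hydrolases was 0.22.

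Genes of protein folding in the endoplasmic reticulum had a negative median with the controls subtracted and without. Of 29 chaperones and unfolded protein response genes, 24 had a difference below 0, with a median of -0.23, -0.17 for gain and 0.06 for loss. In limma 2 of the 29 were at an unadjusted p under 0.05, both on the lower side, against 2.36% of all genes. The list level was -0.06, 0.04 and 0.11 in C, -0.05, 0.18 and 0.11 in SKM-KO, -0.06, -0.08 and 0.05 in Wt, and -0.18, -0.11, -0.03 and -0.13 in SKM-Tg. All 4 SKM-Tg arrays were below 0, but SKM-Tg 3 was above Wt 1 and Wt 2, and SKM-KO 1 lay with C 1, so neither line was clear of its control. The median was -0.25 without Wt 2, -0.30 to -0.15 over the 13 omissions, -0.15 after quantile normalization, -0.16 after cyclic loess and -0.28 for SKM-Tg against SKM-KO directly. Ern1, the sensor IRE1, had -0.67 (SE 0.30; 1 of its 3 probe sets had the opposite sign), and Xbp1, the factor it splices, -0.67 (SE 0.34), all of it in SKM-Tg minus Wt (-0.43 without Wt 2). The mean of Xbp1 was 8.42 in Wt, against 7.74 in SKM-Tg and 7.795 in both C and SKM-KO. Dnajb9, a co-chaperone of BiP, read 8.75, 9.04 and 9.06 in C, 9.04, 9.24 and 9.24 in SKM-KO, 9.05, 8.95 and 9.26 in Wt, and 8.76, 9.04, 9.04 and 8.90 in SKM-Tg. Wt 3 was the highest array and C 1 the lowest, with overlap in both lines (gain -0.15, loss 0.23, difference -0.38, SE 0.17), and P4hb, a protein disulfide isomerase, had -0.36 (SE 0.18).

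The promoters of this list hold a known shared element. The endoplasmic reticulum stress element, which is CCAAT and CCACG with 9 bases of any kind between them, searched on both strands in the 250 bases before the start, was in 9 of the 26 promoters of the 25 list genes with one in the table (34.6%), against 0.113% of all 32851 promoters and 0.12% of the 10802 promoters of genes tested. Each match also holds a CCAAT. Calr, which encodes calreticulin, and Hspa5, which encodes the chaperone BiP, are shown as the holders with the lowest difference of effects (-0.49 and -0.36), a choice made after their values were seen, with the element in capitals.
Calr (chr8:84846932-84847181, minus strand): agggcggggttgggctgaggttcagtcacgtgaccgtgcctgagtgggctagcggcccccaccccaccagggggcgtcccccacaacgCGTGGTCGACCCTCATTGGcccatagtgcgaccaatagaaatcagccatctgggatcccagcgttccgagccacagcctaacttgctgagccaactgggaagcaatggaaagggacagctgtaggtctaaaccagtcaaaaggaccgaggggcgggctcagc
Hspa5 (chr2:34771840-34772089, plus strand): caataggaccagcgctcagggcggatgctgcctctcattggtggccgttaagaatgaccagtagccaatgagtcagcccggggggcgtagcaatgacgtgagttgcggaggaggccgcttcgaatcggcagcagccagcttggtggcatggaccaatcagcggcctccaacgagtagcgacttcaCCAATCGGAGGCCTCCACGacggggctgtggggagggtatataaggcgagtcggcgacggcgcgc
The element starts 162 bases before the start in Calr and 65 in Hspa5. The other holders were Canx (-0.11), Creld2 (-0.24), Dnajc3 (0.07), Ero1b (0.08), Hsp90b1 (-0.19), Pdia6 (-0.21) and Syvn1 (-0.24). List genes whose promoter held no match ranged from Xbp1 and Ern1 (both -0.67) to Selenos (0.16). Whether the element goes with the difference of effects was not tested. Among lysosomal hydrolases, CACGTG, the core of the element that lysosomal gene promoters are known to share, was in 9 of 35 promoters (25.7%), against 8.5% of those of genes tested. Both shares describe the sequences of list members bright enough to be tested. They use no value of the effects, but the lists were chosen with earlier results of these data known.

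Downstream steps of secretion followed with smaller medians. The translocon and signal peptide list had -0.17 (18 of 24 below 0; -0.12 for SKM-Tg against SKM-KO directly), led by the oligosaccharyltransferase subunits Stt3a at -0.44 (SE 0.19), Rpn1 at -0.27 and Ostc at -0.25, whose 2 probe sets differ in sign, and by the channel subunit Sec61a1 at -0.40. The coat proteins between endoplasmic reticulum and Golgi had -0.16 (18 of 23), led by Sec24d at -0.48 (SE 0.22), Sec31a at -0.35, the retrieval receptor Kdelr2 at -0.26 and Copb2 at -0.24, and 0.00 for the direct comparison. Without Wt 2, Rpn1 had a difference of -0.13, Sec61a1 -0.26 and Sec31a -0.14.

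**Figure D4:**
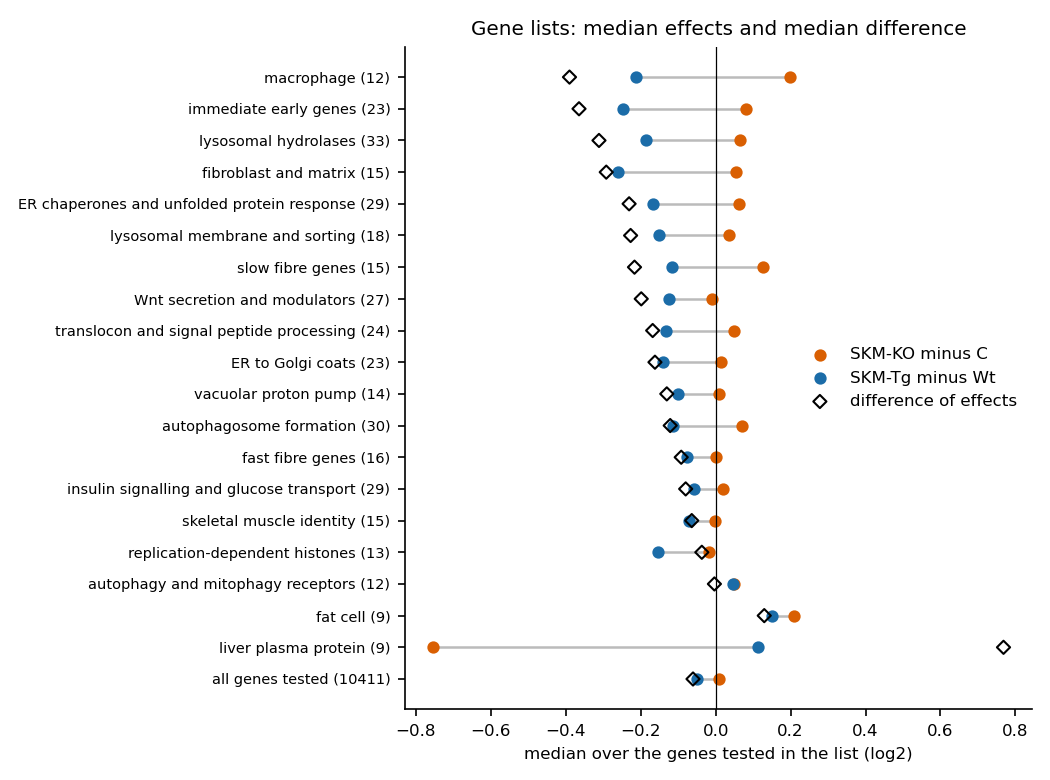
Median effect of loss (orange), of gain (blue) and median difference of effects (open diamonds) over the genes tested in each list, log2, with the number of genes in brackets and all genes at the bottom. The macrophage list lies farthest left at -0.39, all genes lie at -0.06, and the liver plasma protein list is the only one far to the right, at 0.77.

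Immediate early genes, which cells switch on within minutes of a stimulus, had a median of -0.36 (19 of 23 below 0; gain -0.25, loss 0.08). Wt 2 at 0.43 was far above the other arrays, which lay between -0.18 and 0.08, and without it the median was -0.18. It was -0.20 without C 1, and -0.01 with 12 of 23 below 0 for SKM-Tg against SKM-KO directly. Nr4a3, an orphan nuclear receptor induced by exercise, had -1.04 (SE 0.39, unadjusted p = 0.0187; -0.79 without Wt 2) and Fosl2, a subunit of AP-1, -0.80 (SE 0.31; -0.78 without Wt 2). Fosl2 read 7.54, 7.48 and 7.53 in C, 8.31, 7.51 and 7.59 in SKM-KO, 7.95, 8.02 and 7.95 in Wt, and 7.40, 7.95, 6.99 and 7.50 in SKM-Tg. Its SKM-Tg arrays lay below Wt, SKM-Tg 2 by the narrowest margin, and overlapped C, and SKM-KO 1 was far above the other SKM-KO arrays. Ccn2, a matrix signalling protein, had -0.60 (SE 0.29) and Jund -0.54 (SE 0.27), the latter with a second probe set of the opposite sign and -0.25 without Wt 2.

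In the insulin and glucose transport list Tbc1d4 and Rab13 were the 2 of 29 members at an unadjusted p under 0.05 in limma. Both were on the lower side, against 2.36% of all genes. The list median was -0.08, near that of all genes, with 19 of 29 below 0, 0.02 after quantile normalization and 0.08 for SKM-Tg against SKM-KO directly. Rab13, a GTPase of vesicle transport, had -0.39 (SE 0.18; gain -0.13, loss 0.26), the insulin receptor Insr -0.29 (SE 0.14; 2 of 3 probe sets with this sign) and the glucose transporter Slc2a1 -0.62 (SE 0.31). Rab13 read 5.59, 5.47 and 5.60 in C, 5.76, 5.90 and 5.79 in SKM-KO, 5.71, 5.81 and 5.39 in Wt, and 5.36, 5.59, 5.71 and 5.36 in SKM-Tg. SKM-KO was wholly above C and SKM-Tg overlapped Wt, the reverse of Insr, in which only SKM-Tg was clear of its control.

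Slow fibre genes, which encode contractile and other proteins of slow oxidative fibres, had 14 of 15 below 0 and a median of -0.22 (gain -0.12, loss 0.13). The list level was -0.39, 0.48 and 0.22 in C, 0.02, 0.08 and 0.43 in SKM-KO, -0.15, 0.08 and 0.07 in Wt, and -0.13, -0.41, -0.08 and -0.07 in SKM-Tg. C alone spanned -0.39 to 0.48, with C 1 the second lowest array of the series, and without C 1 the median difference was 0.04. Myl2, the slow regulatory light chain, had -0.43 (SE 0.30), the calcium pump Atp2a2 -0.40 (SE 0.38), Actn2 -0.22 (SE 0.15) and Fhl1 -0.20 (SE 0.19). Fast fibre genes had -0.09 (12 of 16), with Tnnt3 at -0.14, Myh2 at -0.13, Casq1 at -0.15 and Tnnc2 at -0.15, and the skeletal muscle identity list -0.06, with Cacna1s at -0.40 (SE 0.32) and Myh4 at -0.13. Without Wt 2, Casq1 had a difference of -0.09 and Cacna1s -0.10. For SKM-Tg against SKM-KO directly the medians were -0.35 in slow fibre genes, 0.00 in fast fibre genes and 0.00 in muscle identity genes. Of 59 replication-dependent histone genes, 15 had a probe set of their own, and 13 of these were bright enough to be tested. The list had no settled sign: its median was -0.04 with 8 below 0, but 0.16 with 2 below 0 without Wt 2. It was -0.25 without Wt 3, and 0.33 for SKM-Tg against SKM-KO directly. H2bc21 had 0.47 (SE 0.18, unadjusted p = 0.0236; gain 0.45, loss -0.02), H1f2 -0.20 and H2bc22 -0.23 (-0.04 without Wt 2). Of 27 Wnt secretion and modulator genes 20 were below 0, with a median of -0.20 (-0.09 without Wt 2, 0.07 for the direct comparison), where the receptor Fzd7 had -0.56 (SE 0.26) and the ligand Wnt9a -0.44 (SE 0.29), both with negative effects in both lines, unlike Dkk3 and Wls.

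Markers of other cells of the muscle leaned beside these lists, and in whole muscle fewer cells of a type and less RNA per cell cannot be told apart. Macrophage markers had a median of -0.39 (10 of 12 tested below 0, of 15 listed; gain -0.21, loss 0.20; -0.24 without Wt 2). Their level was 0.01, 0.13 and -0.36 in C, 0.03, 0.13 and 0.23 in SKM-KO, 0.14, 0.34 and -0.26 in Wt, and -0.52, -0.38, 0.18 and 0.10 in SKM-Tg. The arrays of every group but SKM-KO spanned more than 0.4, with SKM-Tg 1 and SKM-Tg 2 lowest. Cd68, a lysosomal glycoprotein of macrophages, had -0.74 (SE 0.32, unadjusted p = 0.0387), the Fc receptor Fcgr3 -0.56, the complement gene C1qb -0.70 and the adaptor Tyrobp -0.37. Fibroblast and matrix markers had -0.29 (13 of 15; -0.18 without Wt 2), with Gsn at -0.26, Dcn at -0.29, Col6a2 at -0.58 and Col6a3 at -0.60. Without Wt 2, Fcgr3 had a difference of -0.26, C1qb -0.36 and Col6a2 -0.31. For SKM-Tg against SKM-KO directly the medians were -0.19 for macrophage and -0.25 for fibroblast markers. Lysosomal hydrolases are abundant in macrophages and chaperones of secretion in matrix-producing cells, and the part these cells have in the list medians was not tested.

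Plasma protein genes of the liver were the only list described with every member above 0, 9 of 9, and the median was 0.77 (gain 0.11, loss -0.75). Alb, which encodes albumin, read 7.22, 8.67 and 5.37 in C, 5.33, 4.72 and 4.53 in SKM-KO, 7.003, 4.87 and 4.76 in Wt, and 5.24, 6.29, 4.54 and 7.02 in SKM-Tg. C 2 was far above every other array, all SKM-KO arrays were below all C arrays, and Wt and SKM-Tg overlapped. The difference was 2.46 (SE 1.13, 95% interval 0.02 to 4.89; unadjusted p = 0.0485, adjusted 0.989), and it ranged over 1.66 to 3.32 when arrays were left out. Apoa1 had 0.998 (SE 0.44), Apoc3 0.91 (SE 0.36) and Apob 0.58 (SE 0.19), and 4 of the 9 were at an unadjusted p under 0.05 on the higher side, against 0.74% of all genes. Alb, Apoa1 and Apoc3 owed the difference to loss and Apob mostly to gain. Without C 2 the difference was 1.66 for Alb, 0.59 for Apoa1 and 0.62 for Apoc3. The list median was 0.50 without Wt 3, and 0.33 for SKM-Tg against SKM-KO directly. Fat cell markers had 0.13, with Adipoq at 1.22 (SE 1.35), Scd1 at 0.76 (SE 1.26), Retn at 0.43 and Car3 at 0.13 (SE 0.15). Without Wt 2, Adipoq had a difference of 2.23, Scd1 1.42, Retn 0.90 and Car3 0.07.

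**Figure D5:**
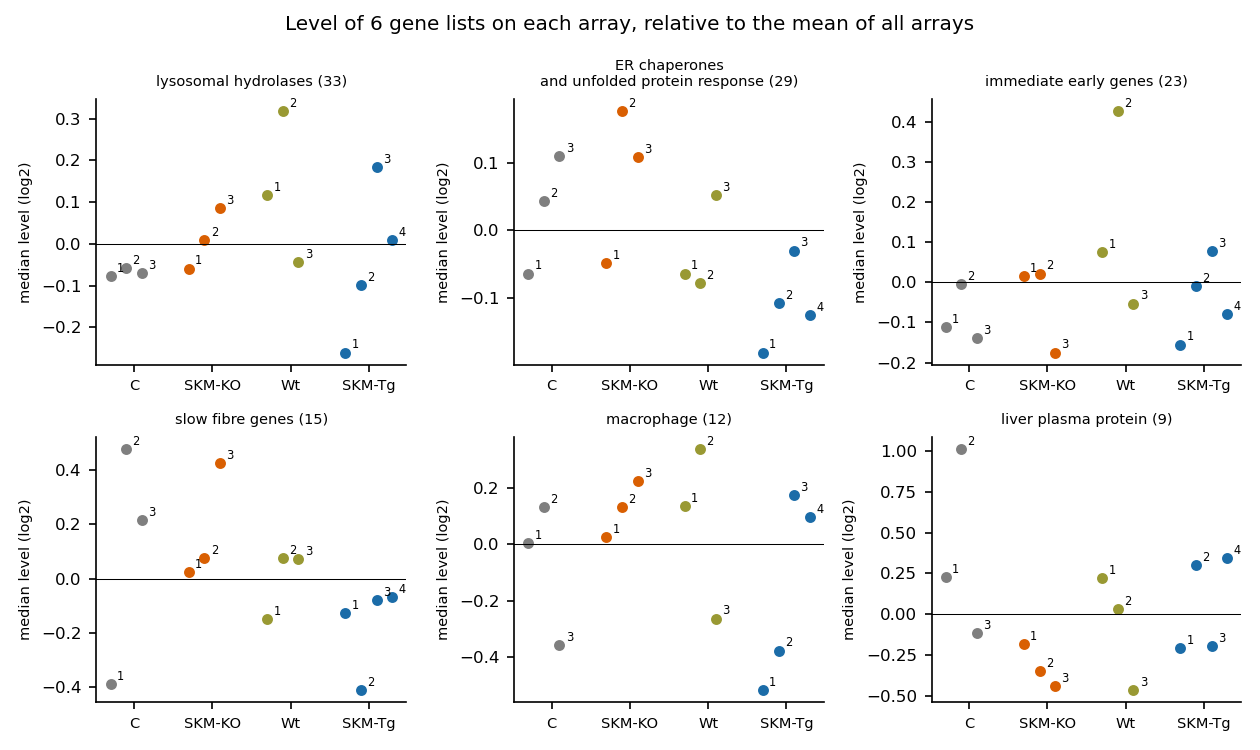
Median level of 6 gene lists on each array (log2, relative to each gene's mean over all arrays), by group, with the replicate number beside each point and the number of genes in brackets. Wt 2 is the highest array in lysosomal hydrolases, immediate early genes and macrophage markers, at 0.32, 0.43 and 0.34, C 2 is the highest in liver plasma proteins at 1.01, and all 4 SKM-Tg arrays are below 0 in the chaperone list.

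Setting SKM-Tg against SKM-KO with no controls uses the same arrays and adds the gap between Wt and C to the difference of effects, so it is given as values side by side only. In that comparison 18 genes (0.173% of those tested) passed the limma test, H3c11 and Trp53inp2 among them. Mybph, a myosin-binding protein, had 2.55 there, made up of a difference of effects of 1.28 and a gap of 1.26 between Wt and C. Il15, a cytokine that muscle secretes, had -1.19, with -0.64 and -0.55 for these parts. Fzd4, a Wnt receptor, had 0.60, of which -0.02 was the difference of effects, and Dusp7, a phosphatase of MAP kinases, 1.16, of which 0.16 was. For Trp53bp1 (-0.54) the gap between the controls was -0.02, so nearly all of it was the difference of effects.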

How the data were processed

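Total RNA of quadriceps was amplified, labelled with biotin and hybridised to Affymetrix strip arrays, per the labels' protocols. The authors deposited log2 values made with RMA, per the submitters' processing notes, whose version is not given in the sources used here. Array number, 3 or 4 per group, limits the precision. Of 45037 probe sets that are not controls, 28898 carry 1 gene symbol in the platform annotation. Each gene was read through its brightest, and genes with a mean of at least 4.904 were tested. A model with 1 mean per group was fitted to all 13 arrays in limma 3.58.1 (R 4.3.3, eBayes, Benjamini-Hochberg threshold 0.05), and tested on simulated data. The simulated arrays were independent, with the same spread of a gene in every group. They therefore do not cover the uneven spread of these arrays. Named genes are the 12 smallest p-values in each direction, up to 10 separated genes per direction by the smaller effect, and up to 4 members per list. Alternatives changed scaling, filter, probe set rule, weights and subtraction of controls, and left out each array. Members and lists were chosen with earlier results of these data known. Promoter sequences are from RefSeq. Labels such as Wt 2 number the arrays of a group in accession order.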

Additional observations from a re-analysis of the deposited data

Results flagged for a closer look

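For 2 genes the effect of gain and the effect of loss differed in the test of the difference itself. The difference was 2.29 for Trp53inp2, whose arrays were low in SKM-KO and overlapped between SKM-Tg and Wt, and 0.91 for H3c11, whose arrays separated from the control in both lines and in opposite directions.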

How the results depend on the processing

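Of 2 genes called, 1 was called after median centring, with a filter at the 75th percentile (where H3c11 was not tested), with weights by group and over all probe sets, 4 with the first principal component as a covariate, 18 with no subtraction of controls and 231 with array quality weights (189 lower, 42 higher). The covariate and the fit over all probe sets were chosen after seeing the data. Leaving out each array gave 1 to 2 calls. The 246 lower genes became 135 after quantile normalization, 158 after cyclic loess, 131 with the 75th percentile filter, 1861 with array weights, 1197 with no subtraction and 604 with the covariate, and 119 to 1170 over the omissions. The 77 higher genes became 164, 172, 30, 598, 667 and 208 in the same order, 204 with no filter and 48 with weights by group, and 51 to 405 over the omissions. The 7 separated genes became 27 (quantile), 30 (loess) and 16 (no filter), and 9 to 23 over the omissions. The 16 became 10 (median centring), 8 (quantile) and 10 (75th percentile), and 20 to 78. H3c11 had 0.90 after median centring (adjusted p = 0.0769) and 0.91 with weights by group (adjusted p = 0.27), and 0.87 to 0.97 over the omissions. Trp53inp2 had 2.18 to 2.41 and was called in each. The cause of these shifts was not tested.

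With no subtraction of controls the sign turned for Trp53inp1 (-0.40), Atg16l1 (0.027), Bcl2l13 (0.17), Fundc1 (-0.41), Npc1 (0.24), Atp6v0d1 (0.0584), Atp6v0a1 (0.15), Sec61a1 (0.0303), Kdelr2 (0.0652), Jund (0.16), Slc2a1 (0.0842), Casq1 (0.0248), H2bc22 (0.0823), Cacna1s (0.29), Cd68 (0.14) and Car3 (-0.0865), none of which had been called. Trp53inp1 had -0.23 with the covariate and -0.37 to 0.43 over the omissions. No paired analysis was possible because the groups share no sample number in the labels.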
